A study of Arabidopsis thaliana and Marchantia polymorpha with 6 samples.

Results

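The regions described here are places in the Arabidopsis genome where the transcription factors PIF4 and HY5 were called at almost the same base: 1198 AtPIF4 binding events, of 5660 outside the pericentromeres, whose centre lies at most 3 bp from the centre of an AtHY5 event. PIF4, of the bHLH family, drives stem and petiole elongation in shade and warmth, and HY5, of the bZIP family, restrains elongation and turns on pigment and light genes. Members of both families can recognise the G-box, a short DNA element with an ACGT core, so a site can be open to either protein. In seedlings the light receptors act on both factors, since PIF4 is degraded in red light and HY5 is spared from degradation by light.

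The data are from DNA affinity purification sequencing (DAP-seq), in which a recombinant protein on beads is offered naked, fragmented genomic DNA and the DNA it holds is sequenced. AtPIF4 and AtHY5, each made in Escherichia coli, were offered genomic DNA of 10-day-old Col-0 Arabidopsis seedlings, with 1 library each. The series also has an Arabidopsis input and 3 Marchantia samples (MpPIF, MpHY5 and an input), not analysed here. The DNA carries no chromatin, so the events show which sequences a protein can hold and not where it sits in the plant. The AtPIF4 list held 6699 events and the AtHY5 list 16825, each an interval of 200 bp with a centre and a score from the authors' caller. The sources used here do not say what the score measures, so scores were ranked within a list and never compared between lists. The lists give no read totals, and the depth of both libraries is unknown.

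Members were chosen by position from these same lists, with the repeat-rich pericentromeres around the centromeres left out (bases 11500000 to 17700000 of chromosome 1, 1100000 to 7200000 of 2, 10300000 to 17300000 of 3, 1500000 to 6300000 of 4 and 9000000 to 16000000 of 5). The 1198 coincident events were 21.2% of the AtPIF4 events outside them (95% Wilson interval 20.1 to 22.2, which like all intervals here covers counting error only). They took up 1198 of 14581 AtHY5 events, or 8.22% (7.78 to 8.67), and no AtHY5 event served more than 1 member. The comparison group is the 1579 AtPIF4 events whose nearest AtHY5 centre was 4 to 100 bp away, called offset events. The other 2883 AtPIF4 events had no AtHY5 centre within 100 bp.

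The distances are a description, since they chose the members. They are distances between called centres, and the caller may have used sequence to place events, which was not tested. Centres 1 bp apart made up 773 of the 1198 members (64.5%), and centres 2 bp apart made up 397 (33.1%). Only 9 members had the very same centre and 19 were 3 bp apart. From 4 to 10 bp there were 14 to 24 events at each distance, with a mean of 20.4. The mean was 22.9 events per bp of distance over the whole of 4 to 30 bp, 18.6 from 31 to 60 bp and 10.1 from 61 to 100 bp. The most filled distance in the offset range was 19 bp, with 44 events. The limit of 3 bp lies where few events are found. The 19 members just inside it had AtPIF4 scores of 90.6 to 1063 (median 149), with 12 of them inside genes. The 14 events at 4 bp, just outside, had scores of 82 to 528.5 (median 121), with 9 inside genes.

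**Figure D1:**
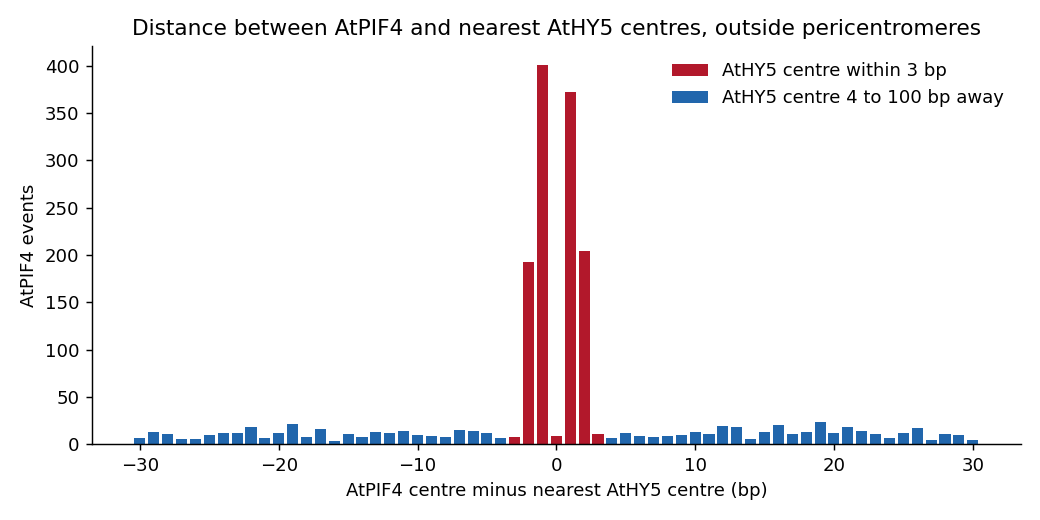
AtPIF4 events outside pericentromeres by the signed distance of their centre from the nearest AtHY5 centre, in bp along the chromosome, for distances up to 30 bp. Red bars are coincident events and blue bars offset events. The bars at -1 and 1 bp hold 401 and 372 events, and the bar at 0 holds 9.

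Along the chromosome coordinate, neither protein's centre stood on 1 side more often. The AtPIF4 centre stood at the higher coordinate in 587 members (49.0%, 46.2 to 51.8) and at the lower one in 602 (50.3%, 47.4 to 53.1). At 1 bp the higher coordinate was taken in 372 of 773 members (48.1%, 44.6 to 51.6), and at 2 bp in 204 of 397 (51.4%, 46.5 to 56.3). Each of these intervals includes an even split. Sites were not oriented by sequence or strand, so the split cannot show whether a protein keeps to 1 side of the DNA element. In offset events the AtPIF4 centre was at the higher coordinate in 51.6% (49.1 to 54.0).

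Coincident events stood above offset events in the AtPIF4 list and below them in the AtHY5 list. The median AtPIF4 score of coincident events was 185 (quartiles 133 and 272, highest 2630), against a median of 152 for offset events (117 and 225, highest 61759) and 136 for AtPIF4 events with no AtHY5 centre within 100 bp. Within the AtPIF4 list, the median coincident event outscored 67.9% of all events (interval of the median 64.6 to 69.8), against 53.5% for offset events (50.2 to 55.9) and 42.3% for events without AtHY5 nearby (40.0 to 43.9). On the AtHY5 side the order turned. The median coincident event had an AtHY5 score of 153 and outscored 65.5% of the AtHY5 list (62.1 to 69.0), against a score of 190 and 74.9% (72.0 to 76.6) for the AtHY5 partners of offset events. Scores come from the same calls as the positions, so these ranks are given without a test.

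**Figure D2:**
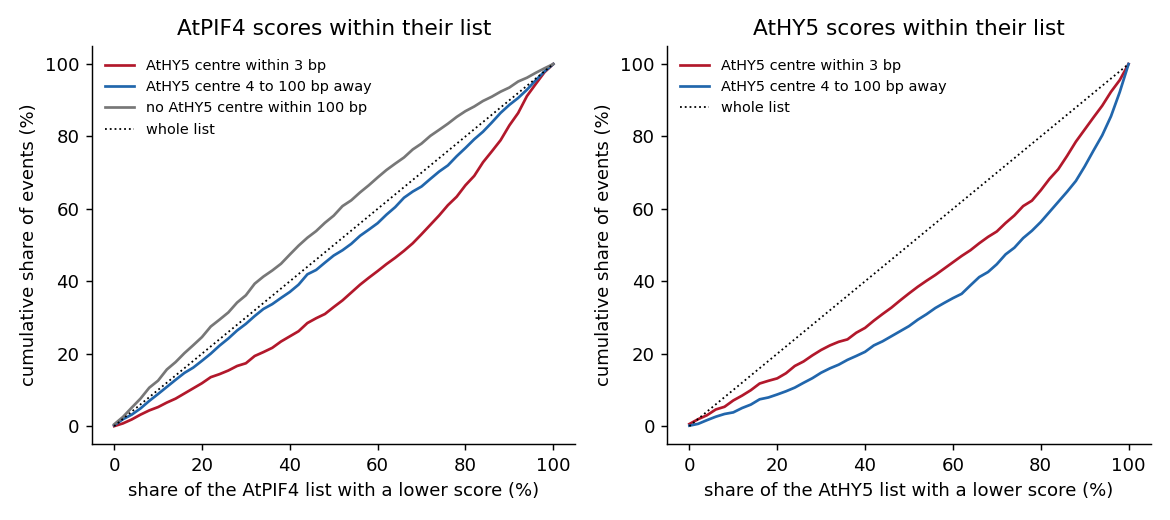
Cumulative share of events (%) against the share of the whole list with a lower score (%), for AtPIF4 scores on the left and AtHY5 scores on the right. A curve farther below the dotted line holds higher scores: coincident events are lowest on the left, with a median of 67.9%, and offset events are lowest on the right, with a median of 74.9%.

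A similar turn shows when each list is cut into 5 classes by score. Of the AtPIF4 events in the lowest class 12.5% were coincident (10.7 to 14.6), and the next classes had 13.9%, 19.1% and 24.9%, up to 35.1% in the highest (32.4 to 37.9). Offset events changed less over those classes, at 25.1% in the lowest class and 32.0% in the highest, with 26.5% to 28.8% in between. Among AtHY5 events the coincident share was 5.47% in the lowest class, then 5.76%, 7.53% and 8.08%, and 14.1% in the highest (12.9 to 15.4). There the offset share was 4.88%, 6.76%, 8.54%, 12.2% and, in the highest class, 772 of 2966 events.

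**Figure D3:**
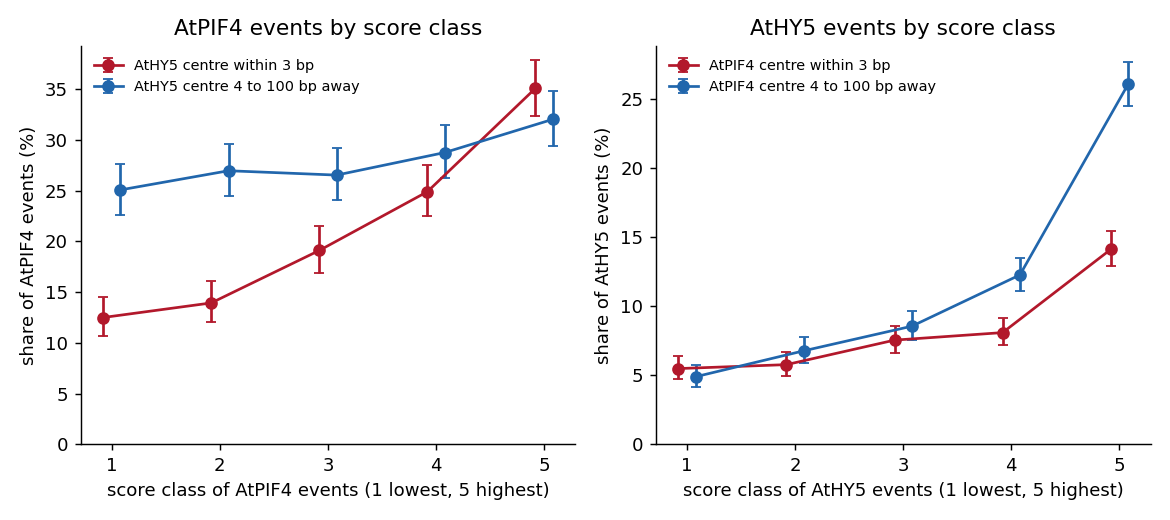
Share of AtPIF4 events (left) and of AtHY5 events (right) outside pericentromeres that are coincident (red) or offset (blue), in %, by score class from 1, the lowest scores, to 5, the highest; bars are 95% Wilson intervals. In the highest class coincident events are 35.1% of AtPIF4 events and 14.1% of AtHY5 events.

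Scores of the 2 proteins at one site were only loosely tied. Across the 1198 members Spearman's rho was 0.30 (Pearson's r of log10 scores 0.31), and across the 1579 offset events it was 0.30 (0.38). The points share 2 libraries and are not independent. Both scores stood above the median of their list for 557 members and neither did for 192. A further 247 members were above it for AtPIF4 only and 202 for AtHY5 only, against 168 and 476 offset events. Members 1 bp apart and 2 bp apart had AtPIF4 medians of 69.8% and 63.8% of the list below and AtHY5 medians of 63.2% and 67.0%. Their intervals overlapped in both lists.

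Between coincident and offset events no difference was detected in the shares inside genes, in the flanks and farther away. Inside protein-coding genes were 783 of 1198 coincident events, or 65.4% (62.6 to 68.0), against 1040 of 1579 offset events, or 65.9% (63.5 to 68.2). The difference of -0.51 percentage points had an interval of -4.08 to 3.05 (Fisher's exact test over events, two-sided, adjusted p = 0.927). The flanks, within 1000 bp beyond a gene end, held 268 coincident events (22.4%) against 356 offset events (22.5%), a difference of -0.18 points (-3.29 to 2.98, exact test, adjusted p = 0.927). Farther than 1000 bp from any protein-coding gene were 147 coincident events (12.3%) against 183 offset events (11.6%), a difference of 0.68 points (-1.73 to 3.16, exact test, adjusted p = 0.927). Within the flank the shares went in opposite directions: 10.7% of coincident events (9.06 to 12.6) against 8.55% of offset events (7.27 to 10.0) stood 1 to 200 bp beyond a gene end, and 4.92% (3.84 to 6.3) against 7.28% (6.10 to 8.67) stood over 500 and up to 1000 bp beyond it. These finer classes were not tested. The sign of the 3 tested differences changed between settings, and none passed the threshold of 0.05 in any setting run. Adjustment ran over 9 tests, and each compares events of single libraries, not replicated conditions. The 773 members 1 bp apart lay inside genes in 65.1% of cases and the 397 members 2 bp apart in 65.5% (difference -0.42 points, -6.08 to 5.40, exact test, adjusted p = 0.927).

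AtPIF4 events without AtHY5 nearby differed from coincident ones in location, a comparison added after seeing the data. They lay inside genes in 70.0% of cases (68.3 to 71.6), against 65.4% of coincident events, a difference of -4.60 points (interval of the difference -7.80 to -1.46, Fisher's exact test, adjusted p = 0.0195). The difference was larger deep in genes. More than 1000 bp from either end of a gene were 120 coincident events (10.0%) against 562 events without AtHY5 nearby (19.5%), a difference of -9.48 points (-11.6 to -7.17, exact test, adjusted p = 1.81e-13). Among events below the median AtPIF4 score the shares over 1000 bp inside were 11.6% and 19.3%, and among the others 9.25% and 19.8%. The shares inside genes were 61.2% and 68.8% below the median score, a difference of -7.52 points (-12.9 to -2.28, exact test, unadjusted p = 0.00557). Among the others they were 67.3% and 71.6%, a difference of -4.27 points whose interval came close to 0 (-8.38 to -0.20, exact test, unadjusted p = 0.0431). Between coincident events and offset events, at 10.0% and 9.18%, no difference was detected here (0.83 points, -1.36 to 3.09, exact test, adjusted p = 0.927). Inside genes, coincident centres stood a median of 485 bp from the nearer end, offset centres 497.5 bp and centres without AtHY5 nearby 616 bp. The part of gene length in this was not tested, and the gene table gives no strand, so gene starts and gene ends are not told apart.

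**Figure D4:**
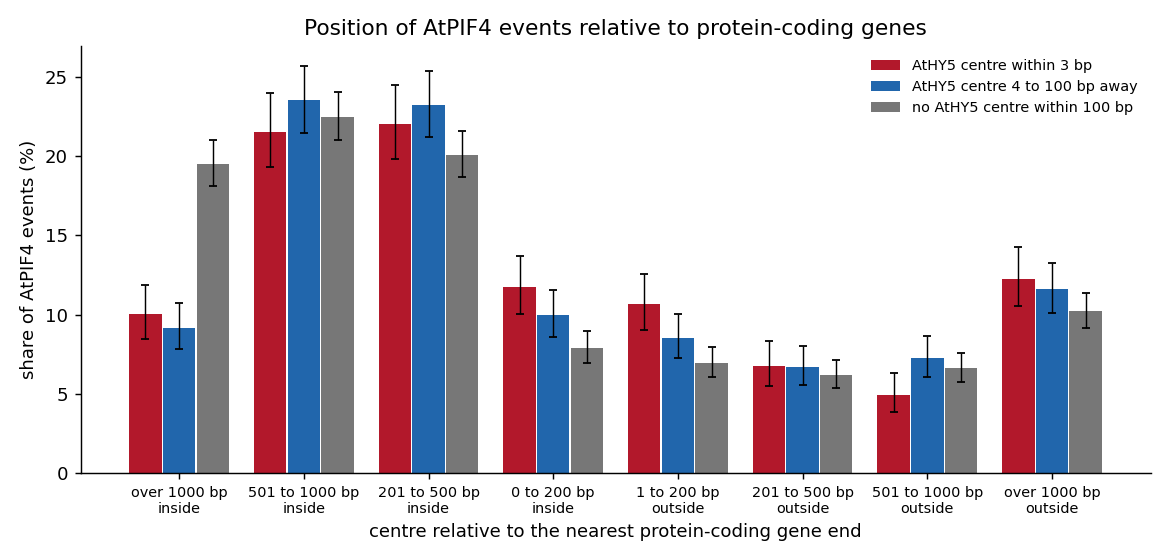
Share of AtPIF4 events (%) by the position of their centre relative to the nearest end of a protein-coding gene, for coincident events (red), offset events (blue) and events with no AtHY5 centre within 100 bp (grey); bars are 95% Wilson intervals. More than 1000 bp inside genes the shares are 10.0%, 9.18% and 19.5%.

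Coincident events were spread over all chromosomes. Chromosome 1 held 392 of them, chromosome 5 held 285, chromosome 2 held 171 and chromosome 3 held 149. As a share of the AtPIF4 events outside pericentromeres this was 24.2% on chromosome 2 (21.2 to 27.5), 22.3% on 1, 21.3% on 4, and 19.3% on both 3 (16.6 to 22.2) and 5. Only 79 members (6.59%) had another member within 1000 bp, and the median gap to the nearest one was 19884 bp. Other AtHY5 events, over 100 and up to 1000 bp away, stood near 40.6% of coincident events against 40.2% of offset events (difference 0.42 points, -3.26 to 4.1, exact test, adjusted p = 0.927). Other AtPIF4 events in that range stood near 240 of 1198 against 22.0% (-2.01 points, -5.03 to 1.07, exact test, adjusted p = 0.617).

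At the level of genes, 1386 of 24061 protein-coding genes outside pericentromeres had a coincident event inside them or within 1000 bp of an end, which is 5.76%. Offset events did so for 1807 genes (7.51%), and 154 genes had both kinds. The event lay inside 763 of the 1386 genes and only in the flank of 623. Of the 1051 members in or near a gene, 666 served 1 gene, 351 served 2 and 34 served 3 or more, so these genes are not independent. With the gene body left out, 654 genes (2.72%) had a coincident event. Annotated genes of other kinds held few members, among them 48 inside long noncoding RNA genes. Of 261 microRNA genes 6 (2.3%) had a coincident event inside or within 1000 bp.

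The pairs that ranked highest in both lists combined were taken by the sum of ranks. The AtPIF4 list is shorter, so the same rank outscores a smaller percentage of it than of the AtHY5 list. First stood the event near SHOT1 (AT3G60400), a gene found as a suppressor of the heat-sensitive mutant hot1-4, at chr3:22327984-22328183 and 965 bp beyond a gene end. Its AtPIF4 score of 2503 was rank 18 of that list and its AtHY5 score of 1361 rank 132. Next came LYK4 (AT2G23770), a LysM receptor-like kinase gene of chitin responses, at chr2:10119576-10119775, with ranks 68 and 138. After it came AT1G73390, with an event at chr1:27596060-27596259, 407 bp beyond an end, and ranks 176 and 93.

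NST1 (AT2G46770) encodes a NAC factor that switches on secondary wall thickening. Its pair lay inside the gene at chr2:19221004-19221203, with an AtPIF4 score of 912 and an AtHY5 score of 1255, higher than 98.3% and 99.1% of their lists. The pair of SRF7 (AT3G14350), a STRUBBELIG family receptor kinase gene, was at chr3:4782465-4782664, 193 bp beyond an end, and also served AT3G14330 and AT3G14340. OBP4 (AT5G60850), a Dof zinc finger gene, had its pair 230 bp beyond an end at chr5:24482294-24482493, with scores of 549 and 1230. RSH3 (AT1G54130) encodes an enzyme of the alarmone ppGpp in chloroplasts, and its pair stood 749 bp away with scores of 530.7 and 1015.

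MIZ1 (AT2G41660), needed for root growth towards water, held its pair 627 bp inside the gene at chr2:17368480-17368679, with scores of 811 and 766.4. BBX15 (AT1G25440), a B-box gene, held its pair 507 bp inside at chr1:8934938-8935137, with scores of 821 and 691.7. The AtPIF4 score at AT2G38240 was below only that of SHOT1 among the 20 named pairs, at 1388 (rank 50), with an AtHY5 score of 858. Of these 20 pairs 12 lay inside a protein-coding gene, 15 had centres 1 bp apart and 5 had centres 2 bp apart. The others were at AT2G27940, AT5G05250, AT1G75800, AT3G48510, AT1G55440, AT4G37420, AT5G11990, AT5G40800, AT5G55180 and AT1G23710, with AtPIF4 scores of 398 or more and AtHY5 scores of 644.8 to 1828.

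Genes of light, clock, pigment, hormone and temperature biology were then counted in 12 lists with 233 members, of which 218 lie outside pericentromeres. The lists were chosen with earlier results of these data known, so no test is given. In all, 21 of the 218 genes (9.63%) had a coincident event inside or within 1000 bp, beside 5.76% of all protein-coding genes. Offset events stood at 31 of the 218 (14.2%), beside 7.51% of all genes, so the share of list genes was above that of all genes for both kinds of event. List genes also carried AtPIF4 events of any kind more often, with 86 of 218 against 24.1% of all genes, and AtHY5 events at 138 of 218 against 49.6%. Given an AtPIF4 event of any kind, 24.4% of list genes (21 of 86) had a coincident one, beside 24.0% of all genes (1386 of 5787).

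**Figure D5:**
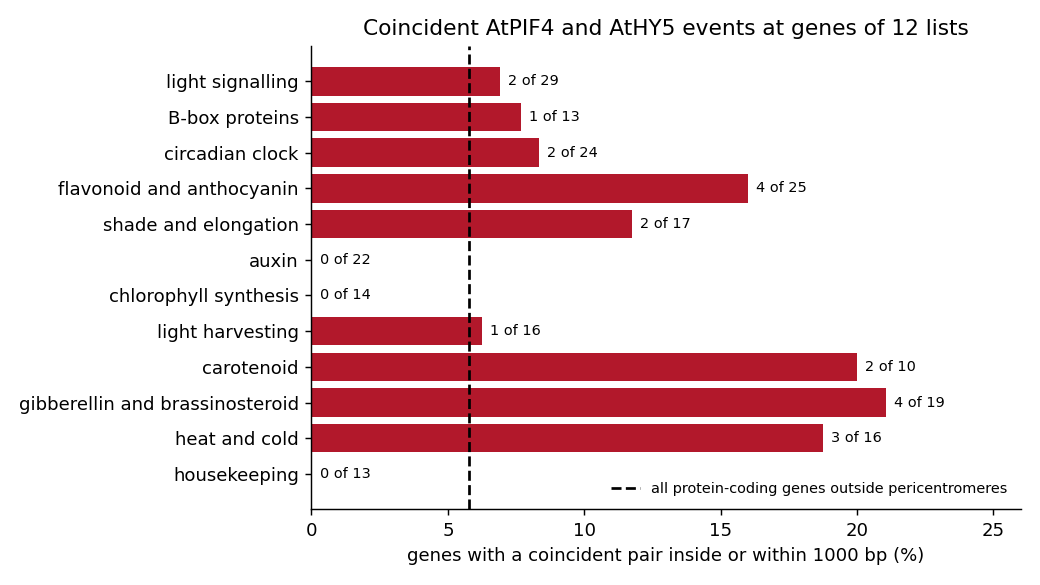
Share of the genes of each of 12 lists (%) with a coincident event inside the gene or within 1000 bp, counting genes outside pericentromeres; labels give the genes with an event of how many. The dashed line marks 5.76%, the share over all protein-coding genes outside pericentromeres, and 3 lists stand at 0.

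The counts of single lists below are to be set beside the 5.76% of all protein-coding genes with a coincident event. In most lists more genes had an offset event, such as 6 of 25 flavonoid and anthocyanin genes and 3 of 13 B-box genes. Fewer had one in the shade and elongation, carotenoid, gibberellin and brassinosteroid, and heat and cold lists. Of 29 light signalling genes 2 (6.90%) had a coincident event, PHYA and PHYD. PHYA (AT1G09570) encodes the far-red receptor, and its pair stood 846 bp beyond an end at chr1:3094215-3094414, with an AtPIF4 score of 254 (higher than 83.0% of the list) and an AtHY5 score of 87 (27.3%). PHYD (AT4G16250), a relative of PHYB, had a lower AtPIF4 score of 132 (39.4%) and a higher AtHY5 score of 225.6 (80.6%). Of 24 clock genes PRR9 and ZTL had one. PRR9 (AT2G46790), a morning repressor of the clock, had its pair 172 bp beyond an end, with scores of 376 and 237 that stood high in both lists (91.7% and 82.0%). ZTL (AT5G57360), a blue light sensing F-box gene, had scores of 188 and 69.2. Of 13 B-box genes only BBX19 had one, with an AtPIF4 score of 482 (94.6%) and an AtHY5 score of 78 (19.1%).

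Of 25 flavonoid and anthocyanin genes 4 had a coincident event. CHS (AT5G13930), the entry enzyme of flavonoid synthesis, held the pair 848 bp inside the gene at chr5:4489317-4489516, with scores of 129.6 (38.0%) and 147.2 (63.7%). DFR (AT5G42800), which leads to anthocyanins, had it 12 bp beyond an end at chr5:17165945-17166144, with scores of 457.8 (94.1%) and 108.6 (44.5%). The flavonol regulators MYB11 (AT3G62610) and MYB111 (AT5G49330) both held one inside the gene. MYB11 had scores of 357.3 and 106.5, and MYB111 had 274 and 134.7. Among 10 carotenoid genes the 2 with a pair were BCH1 and BCH2, which encode the beta-carotene hydroxylases. Their AtPIF4 scores of 112 and 118 were low (22.0% and 27.4% of the list below), and the centres were 3 and 2 bp apart. The AtHY5 scores were 175 (71.5%) for BCH1 and 97 (35.4%) for BCH2. LHCA1 (AT3G54890), an antenna gene of photosystem I, was the 1 of 16 light harvesting genes, with its pair 76 bp inside the gene and scores of 157 and 314. Of 14 chlorophyll synthesis genes none had a coincident event, with AtPIF4 events of any kind at 6 and AtHY5 events at 8.

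Of 22 auxin genes none had a coincident event, beside 5.76% of all protein-coding genes, and in lists this short nothing is read from a count of 0. AtPIF4 events stood at 8 of them, AtHY5 events at 13 and offset pairs at 5, beside 24.1%, 49.6% and 7.51% of all genes. In the gibberellin and brassinosteroid list there were 4 of 19. They are the DELLA growth repressors GAI (AT1G14920) and RGL1 (AT1G66350), and the brassinosteroid response factors BZR1 (AT1G75080) and BES1 (AT1G19350). All 4 stood low in the AtHY5 list, with scores of 87.9, 83, 74 and 66.9 that were higher than 28.0%, 24.0%, 14.8% and 7.79% of it. Their AtPIF4 scores were 161, 197.7, 98 and 185. In the shade and elongation list there were 2 of 17. ATHB2 (AT4G16780), a homeodomain gene induced by shade, held its pair 435 bp inside the gene at chr4:9450371-9450570, with scores of 394 and 331 (92.5% and 89.4%). EXPA8 (AT2G40610), an expansin gene that loosens walls, held 2 pairs, at chr2:16950042-16950241 and chr2:16950169-16950368. The second of these scored 227.6 and 251.1, against 115.4 and 86.3 for the first.

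The heat and cold list had 3 of 16, beside 5.76% of all protein-coding genes. All 3 are cold-induced genes, but COR15A counts only through a pair that it shares with COR15B. In a list this short nothing is read from their kind. COR15B (AT2G42530) had the highest AtPIF4 score of all list members, 1430 (rank 45), from an event at chr2:17708202-17708401 whose AtHY5 score was 366.9 (91.0%). A second pair, at chr2:17709578-17709777, lay inside COR15B and 764 bp beyond an end of its neighbour COR15A (AT2G42540), with scores of 115.6 and 253. KIN1 (AT5G15960) had 2 pairs, 1 inside the gene with scores of 121.8 and 99.6 and 1 lying 998 bp beyond an end with 276 and 229. COR15A and COR15B are close copies, as are KIN1 and its neighbour, so reads may be split between them. Of 13 housekeeping genes none had a coincident event, with AtPIF4 events at 4 and AtHY5 events at 7. Over all protein-coding genes the shares were 5.76%, 24.1% and 49.6%.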

How the data were processed

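Per the submitters' processing notes, Trim Galore and Bowtie2 were used on the reads and the build was TAIR10, with no versions given. Per the file headers, events were called with GEM, and the authors deposited a score for each event. The sources used here give neither the normalization of the score nor the use of the inputs. Centres were paired with the nearest centre of the other list. Genes came from a RefSeq table of TAIR10.1, a name that differs from that of the lists, so its coordinates are not printed. As a check, members lay inside genes in 65.4% of cases as placed and in 55.5% to 59.8% after shifts of 1000 or 2000 bp. A misplacement of less than 1000 bp was not tested. The table has no strand or exons. No genome sequence was used here, so the planned motif shares were not run and no sequences are shown.

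Fisher's exact test was two-sided over events, with Benjamini-Hochberg adjustment over 9 tests, of which 3 were planned. Differences have Newcombe intervals, and medians have distribution-free 95% intervals. The score's share below is the percentage of the whole list with a lower score. The named pairs are the 20 with the lowest sum of ranks in or within 1000 bp of a gene, and list members with a pair. The best pair of each chromosome was also to be named; each is among the 20. Members and lists were chosen with earlier results of these data known. The pairing and the gene assignment were tested on simulated data. Python 3.11.15, pandas 2.3.3 and scipy 1.17.1 were used.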

Additional observations from a re-analysis of the deposited data

Results flagged for a closer look

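Coincident events inside the pericentromeres were left out by the rule that chose the members. They were not part of the comparisons and are described here. There, 121 of 1039 AtPIF4 events (11.6%, 9.84 to 13.7) had an AtHY5 centre within 3 bp, beside 21.2% outside. Of these, 72 events were 1 bp apart, 40 at 2 bp, 7 at 3 bp and 2 with the same centre. Inside protein-coding genes were 56 of them (46.3%, 37.6 to 55.1), and 48 lay farther than 1000 bp from any. Their median AtPIF4 score was higher than 59.3% of its list and their median AtHY5 score higher than 57.5%. None lay within 10 kb of a nuclear rRNA gene, but the gene table holds only 4 of these, so the count says little. Whether the shares inside and outside pericentromeres differ was not tested.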

How the results depend on the processing

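The number of coincident events was 1179 to 1341 with limits of 2, 5 and 10 bp and with pericentromeres kept, against 1198. It was 782 with a limit of 1 bp and 570 when both scores had to reach the median of their list. The 3 location differences between coincident and offset events passed the threshold under no alternative, with adjusted p from 0.383 to 1, but their sign changed in 15 of 34 cases. For the share inside genes the difference turned to 0.24 points with a limit of 10 bp, 1.20 with offsets of 4 to 50 bp and 1.97 with pericentromeres kept. For the flank it turned to 0.24 with a limit of 10 bp, 1.04 with offsets of 21 to 100 bp, 1.28 at AtPIF4 scores of the median or more, 0.051 with pericentromeres kept, 0.31 with genes of every biotype, 2.18 with a flank of 500 bp, 0.58 with 2000 bp and 1.29 without events that have another AtHY5 event over 100 and up to 1000 bp away, a setting chosen after seeing the data. For the share farther than 1000 bp it turned to -0.48 with a limit of 10 bp, -2.02 with pericentromeres kept, -1.68 with a flank of 500 bp and -0.078 with 2000 bp. The cause was not tested. The differences in median rank kept their direction in all alternatives. Genes with a coincident event numbered 654 without the gene body, and list genes 13, since fewer bases then count. Counts of single lists moved by over 1.5 times in 7 of 36 cases, among them light signalling and B-box proteins, which had 0 within 500 bp. No paired analysis was possible because each group has 1 library. Both libraries are of unknown depth, and neither has a replicate, so how many pairs would be found again is unknown.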

Other observations

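Families recognised by gene symbol were counted after the data were seen, so no test is given and the members named were chosen with their values known. UDP-glycosyltransferase genes, whose enzymes attach sugars to flavonoids, hormones and other small molecules, had a coincident event at 13 of 58 (22.4%), through 13 distinct events, beside 5.76% of all protein-coding genes. Offset events also stood at 13 of the 58, beside 7.51% of all genes, and AtPIF4 events of any kind at 32 (55.2%), beside 24.1%. UGT89B1 had an AtPIF4 score of 1322 (higher than 99.1% of the list) and an AtHY5 score of 225.8, and UGT78D3 had 392 and 270.9. Many of these genes are tandem copies, and reads may be split between them. B-box genes of all kinds had one at 5 of 31 (16.1%), offset events at 6 (19.4%) and AtPIF4 events of any kind at 19. BBX14 had scores of 837 and 546.4 from a pair inside the gene, close to those of BBX15. Cytochrome P450 genes had one at 21 of 217 (9.68%), NAC genes at 8 of 87 (9.20%), WRKY genes at 6 of 68 (8.82%), MYB genes at 8 of 111 (7.21%) and expansin genes at 3 of 25. Offset events stood at 23, 17, 7, 12 and 1 of the genes of these families, in the same order. FEZ, a NAC gene that orients divisions in the root cap, had scores of 301 and 994.

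A total of 5 genes had 3 coincident events, the most at any gene. CYP86A2, which encodes a fatty acid hydroxylase of cutin synthesis, held all 3 inside the gene, and the middle one had an AtHY5 score of 2407 (higher than 99.7% of the list) with an AtPIF4 score of 159.1. ARA12, a subtilase gene, also held 3, with AtPIF4 scores of 224, 110.2 and 266. The other genes were AT3G48510, AT4G15960 and AT4G36170. MicroRNA genes had a coincident event inside or within 1000 bp at 6 of 261 (2.3%). MIR164b, whose product targets NAC genes, had the highest scores, 1794 for AtPIF4 and 376.2 for AtHY5, from a pair 53 bp beyond an end. MIR858a, whose product targets MYB regulators of flavonoids, had 279 and 86.7. MIR826a and MIR826b share 1 pair, and MIR777 and MIR399c had AtPIF4 scores of 88 and 111.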
